A study of Rattus norvegicus with 14 samples.

Results

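The lowest dose of a gavage series of dicyclohexyl phthalate (DCHP), 100 mg/kg/day, was compared with the corn oil vehicle across all expressed genes of the fetal rat testis. The libraries were chosen by their labelled dose, which gave 6 of the 14 libraries of the series: 3 litters at 100 mg/kg/day and 3 vehicle litters. DCHP is a phthalate diester used as a plasticizer. Harlan Sprague Dawley dams received 2.5 ml/kg by gavage each day from gestational day 14 through 18, and both groups received corn oil. The male fetuses were necropsied on gestational day 18. The testes of a litter were pooled, so a library is 1 litter and the spread given here is the spread between litters. Expression was read with TempO-Seq, a targeted assay in which adjacent detector oligos are joined when both sit on their RNA, and the joined product is sequenced. The libraries at 300, 600 and 900 mg/kg/day (3, 3 and 2 litters) entered the statistical fit and are shown beside the lowest dose where they bear on it.

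In the fetal testis, Leydig cells between the cords turn cholesterol into testosterone. Cholesterol is taken up from lipoproteins or made by the mevalonate pathway, and STAR then carries it into the mitochondrion. There CYP11A1, fed with electrons by ferredoxin, makes pregnenolone, and 3β-hydroxysteroid dehydrogenase, CYP17A1 and HSD17B3 complete the route to testosterone. Fetal Leydig cells also secrete INSL3, which acts in the first phase of testicular descent. Phthalate esters that lower fetal testosterone in the rat are known for lowering the transcripts of this route, and the question here was what is measurable at the lowest dose.

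The 6 libraries held 7573384 to 10198123 estimated counts, and 12719 of the 18174 genes in the table were tested. The tissue label was checked against markers: Insl3 of Leydig cells, Aard of Sertoli cells and Stk31 of germ cells had mean vehicle levels of 3862, 570 and 824 CPM (counts scaled to a fixed library total). In both groups 1 library stood apart from its own group. Vehicle replicate 1 and 100 mg/kg/day replicate 1 had first principal component scores of -42.6 and -65.1, and the other 4 libraries scored between 7.25 and 35.6. That axis held 36.1% of the variance of all 14 libraries. Within a group, the correlations of log2 CPM across genes were 0.931 to 0.976 over 6 pairs of libraries, and between the groups they were 0.931 to 0.980 over 9 pairs. The closest of the other 5 libraries to each vehicle library was a treated one. The split between libraries was therefore as wide within a group as between the groups. Results are given with all libraries and, where they matter, without these 2.

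**Figure D1:**
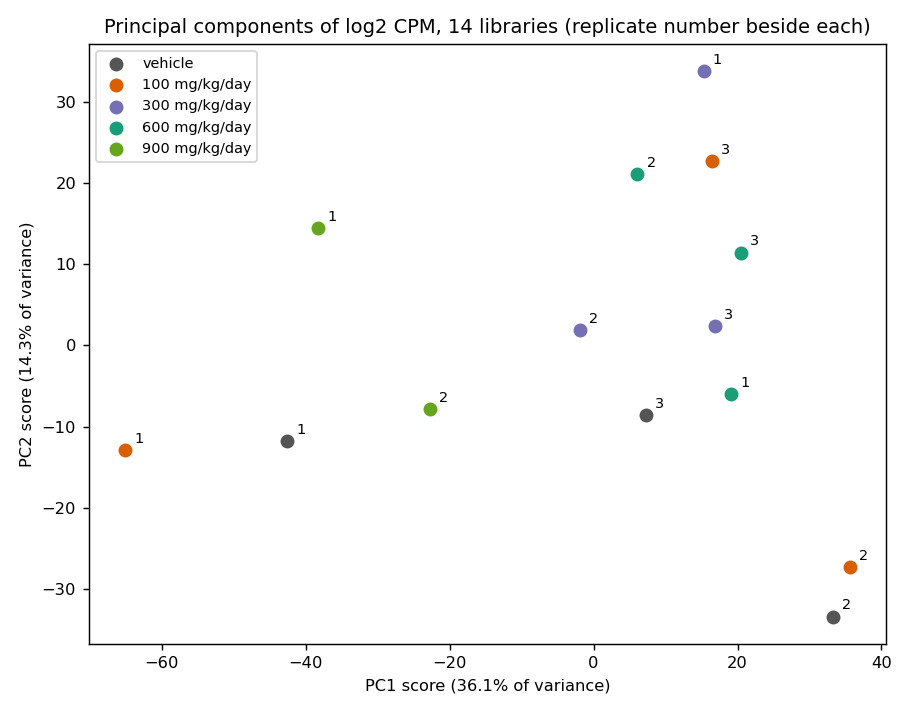
Scores of the 14 libraries on the first and second principal component of log2 CPM, coloured by dose, with the replicate number beside each point. Vehicle replicate 1 and 100 mg/kg/day replicate 1 lie at the left with both libraries of the highest dose, while the other vehicle and 100 mg/kg/day libraries lie at the right.

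No gene passed an adjusted p under 0.05 at 100 mg/kg/day against vehicle by the quasi-likelihood test of edgeR, adjusted by Benjamini-Hochberg (0% of 12719 tested genes). At an unadjusted p under 0.05, 203 genes (1.6%) were lower and 230 (1.81%) were higher. In 380 genes (2.99%) all 3 treated litters lay below all 3 vehicle litters, and in another 380 genes (2.99%) all lay above. With exchangeable litters, a gene separates in 1 direction or the other with a probability of 0.1. The 2 shares together do not exceed that, nor do the shares at an unadjusted p under 0.05 exceed 0.05. Litters that do not overlap are therefore given below as a description of a gene. DESeq2 called 2 genes (0.0157%), Star and Slc41a3, both lower and both with an adjusted p of 0.0492. A surrogate variable is a term estimated from the libraries to take up variation beyond the dose means. It was not free of dose here. The 900 mg/kg/day libraries scored -0.353 and -0.209 on it, and those at 300 and 600 mg/kg/day scored -0.0146 to 0.187. An edgeR fit with 1 such term called 15 genes (0.118%), of which 14 were lower. These were Cplx2, Dpt, Tmem176b, Flvcr2, B3gnt2, Asah1, Fabp3, Lrp8, Idh1, Star, Inha, Stc2, Slc41a3 and Cebpb, and the 1 higher gene was Smc1b. The values below are log2 fold changes ± standard error from the edgeR fit without that term, in which none of the named genes passed. The median over all tested genes was 0.01.

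**Figure D2:**
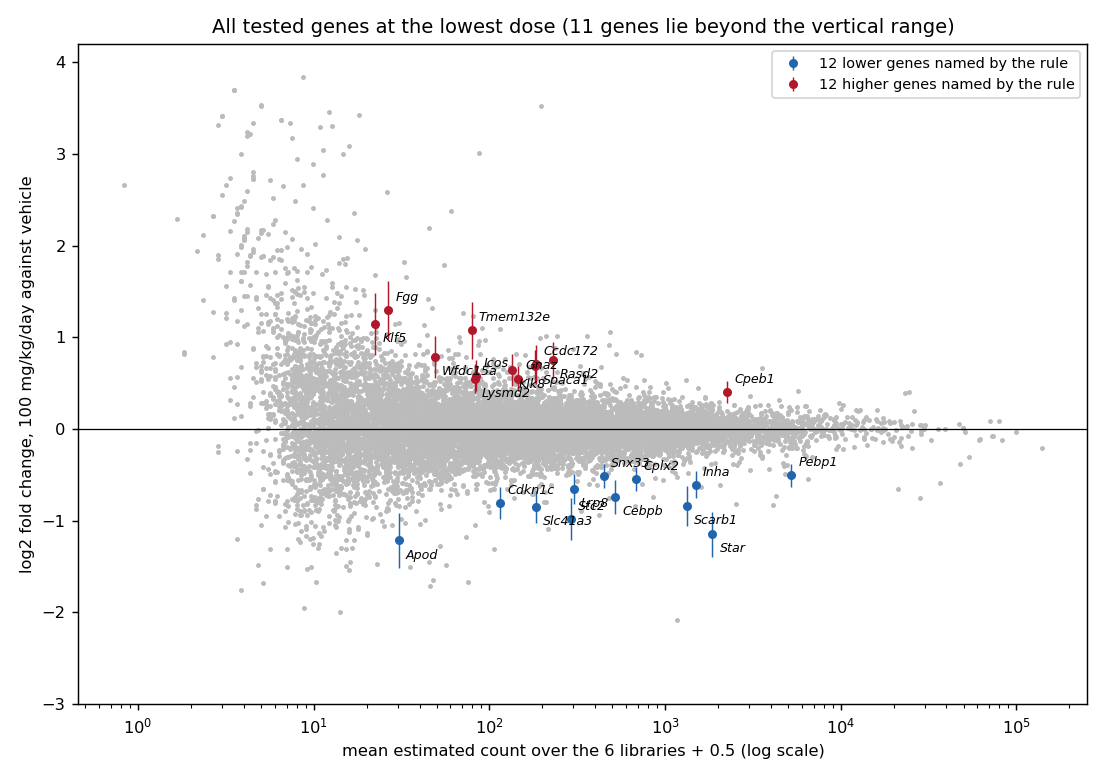
Log2 fold change at 100 mg/kg/day against vehicle for every tested gene (grey), against the mean estimated count over the 6 libraries on a log axis. Blue and red points are the 12 lower and 12 higher genes named by rule, with bars of 1 standard error, and 11 genes lie beyond the vertical range.

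Star, which brings cholesterol to the inner mitochondrial membrane, had the clearest difference of the steroidogenic genes. It lies on chromosome 16 (rn7, chr16:66264807-66271673, minus strand). Its vehicle litters stood at 343, 209 and 283 CPM and its 100 mg/kg/day litters at 171, 115 and 90.8 CPM. The groups did not overlap, and the treated level was 54.9% below vehicle. The log2 fold change was -1.15 ± 0.25 with all libraries and -1.25 without the 2 that stood apart. Over all alternatives, leaving out single libraries included, it ranged from -1.43 to -0.96. Under DESeq2 and with the surrogate variable Star was among the called genes, the latter with an adjusted p of 0.0219 in edgeR. In bulk tissue such a value cannot tell fewer Leydig cells from less RNA per cell.

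Of the 14 tested genes of testosterone synthesis, 12 had a negative fold change, against 47.7% of all tested genes, and the median was -0.45. Litters did not overlap for 5 of the 14, all lower (2.99% of all genes): Star, Fdx1, Hsd3b3, Hsd3b1 and Hsd3b2. All but Hsd3b2 had an unadjusted p under 0.05 (1.6% of all genes). The rows of Hsd3b3 and Hsd3b1 hold 1 measurement, as described below, so these counts contain it more than once. Without the 2 libraries that stood apart the median was -0.57. The summed level of the 14 genes was 8549 to 11518 CPM in vehicle litters and 5605 to 8065 CPM in treated litters, and most of it was Hsd3b3 and Fdx1. The adrenal cortex expresses several of the same genes, and 4 of 5 tested adrenal markers had a negative fold change. Their summed level was 124 to 177 CPM in vehicle and 90.5 to 161 CPM in treated litters. The upper end in each group was the library that stood apart. The other litters were at 126 and 124 CPM in vehicle and at 90.5 and 105 CPM in treated litters, without overlap. Most of that sum was Nr5a1, at a mean of 132 CPM in vehicle and 111 CPM in treated litters. Nr5a1 is also on the fetal Leydig cell list, so the sum cannot tell adrenal tissue from Leydig cells. The part of adrenal tissue in these values was not tested.

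Fdx1 encodes ferredoxin, the electron donor of the mitochondrial P450 enzymes, and lies on chromosome 8 (rn7, chr8:52268536-52287415, minus strand). Vehicle litters had 2459, 3491 and 2541 CPM, and treated litters had 1645, 2342 and 1421 CPM. Every treated litter was below every vehicle litter, by a small margin between the highest treated and the lowest vehicle litter. The log2 fold change was -0.65 ± 0.20. Fdxr, the reductase that passes electrons to ferredoxin, was at 216, 158 and 138 CPM in vehicle and at 202, 92.1 and 106 CPM in treated litters. These overlapped, with a log2 fold change of -0.36 ± 0.25, and in both groups the library that stood apart was the highest.

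The 3β-hydroxysteroid dehydrogenase gene Hsd3b3 stood at 4104, 5480 and 4909 CPM in vehicle and at 2655, 3906 and 3062 CPM in treated litters, without overlap. Its log2 fold change was -0.59 ± 0.17. The row of Hsd3b1 had a count of 0.0846% to 0.0851% of that of Hsd3b3 in each of the 14 libraries, so both rows carry 1 pattern and Hsd3b1, at -0.58 ± 0.25, is not a separate measurement. Hsd3b2 was at 1.14 to 1.70 CPM in treated and 2.06 to 2.49 CPM in vehicle litters. The promoters of Hsd3b1 and Hsd3b3 are shown because they are near-identical copies, and the capital marks the 1 of 300 positions at which they differ. They run from 250 bases before to 50 bases after the start of the gene, in RefSeq's GRCr8 on the minus strand, at chr2:188864645-188864944 and chr2:188832685-188832984.
Hsd3b1: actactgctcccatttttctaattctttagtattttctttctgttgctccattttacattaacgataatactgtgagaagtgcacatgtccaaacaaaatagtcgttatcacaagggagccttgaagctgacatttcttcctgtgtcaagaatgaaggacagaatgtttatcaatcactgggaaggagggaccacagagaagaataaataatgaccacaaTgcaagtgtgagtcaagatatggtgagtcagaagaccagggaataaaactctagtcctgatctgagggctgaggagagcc
Hsd3b3: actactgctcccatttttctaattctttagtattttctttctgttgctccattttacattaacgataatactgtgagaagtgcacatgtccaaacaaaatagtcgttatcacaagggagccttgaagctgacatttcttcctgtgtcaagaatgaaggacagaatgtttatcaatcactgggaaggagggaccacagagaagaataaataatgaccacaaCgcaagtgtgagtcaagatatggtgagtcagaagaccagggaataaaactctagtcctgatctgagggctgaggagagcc

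Cyp11a1, the side-chain cleavage enzyme that makes pregnenolone, was at 696, 1083 and 760 CPM in vehicle and at 399, 733 and 607 CPM in treated litters. Cyp17a1, the 17α-hydroxylase and 17,20-lyase, was at 223, 523 and 300 CPM in vehicle and at 102, 299 and 190 CPM in treated litters. In both genes vehicle replicate 2 was the highest library and the treated litters reached into the vehicle range. The log2 fold changes were -0.55 ± 0.26 for Cyp11a1 and -0.82 ± 0.39 for Cyp17a1, and both 95% intervals held 0 (-1.10 to 0.01 and -1.65 to 0.01). Leaving out vehicle replicate 2 gave the smallest difference, -0.33 and -0.41, and leaving out 100 mg/kg/day replicate 2 the largest, -0.75 and -1.25.

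Hsd17b3, which reduces androstenedione to testosterone, was at 280, 292 and 267 CPM in vehicle and at 251, 327 and 269 CPM in treated litters. Its log2 fold change was 0.02 ± 0.11, with a 95% interval of -0.22 to 0.25, so a value as low as that fitted for Star lay outside the interval. The remaining members were measured with less precision or overlapped more. Cyb5a, the cytochrome b5 that aids the lyase step, was at -0.26 ± 0.19, Tspo, a protein of the outer mitochondrial membrane, at -0.10 ± 0.23, and Por, the P450 reductase, at -0.34 ± 0.46. Srd5a1, a 5α-reductase, was at -0.30 ± 0.59. Stard3, a cholesterol-binding protein of late endosomes, was at 0.40 ± 0.36.

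Insl3 was at 2275, 5869 and 3444 CPM in vehicle and at 1485, 3071 and 2342 CPM in treated litters. The treated range overlapped the vehicle range, the vehicle litters spread widely, and the log2 fold change was -0.75 ± 0.39. It was -0.31 without vehicle replicate 2 and -1.02 without vehicle replicate 1. Of 15 tested genes of the list of other fetal Leydig cell genes, 9 had a negative fold change and the median was -0.26. Litters did not overlap for 2 of them, Inha and Crhr1, both lower (2.99% of all genes).

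Inha encodes the α subunit of inhibin and lies on chromosome 9 (rn7, chr9:76993589-76997249, plus strand). It stood at 172, 226 and 192 CPM in vehicle and at 116, 143 and 128 CPM in treated litters, a log2 fold change of -0.61 ± 0.15. Its partner Inhba, the βA subunit of inhibin and activin, was at -0.30 ± 0.15. Crhr1, a receptor for corticotropin-releasing hormone, was at 47.3, 46.8 and 56.4 CPM in vehicle and 33.1, 30.6 and 39.1 CPM in treated litters. These groups were apart, with a log2 fold change of -0.55 ± 0.21. Lhcgr, the luteinizing hormone receptor, was at 1.05 to 3.56 CPM in treated and 2.78 to 4.91 CPM in vehicle litters, with overlap and a log2 fold change of -0.86 ± 0.42. Prlr, the prolactin receptor, was at -0.61 ± 0.35 with overlap.

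Among transcription factors of the steroidogenic cell, Cebpb was at 52.8, 92.0 and 65.8 CPM in vehicle and at 33.1, 48.1 and 44.8 CPM in treated litters. The groups did not overlap and the log2 fold change was -0.74 ± 0.19. Nr5a1, the nuclear receptor that drives steroidogenic genes, had overlapping litters and a log2 fold change of -0.26 ± 0.21. Its relative Nr5a2 was apart in the other direction, with 16.3 to 19.7 CPM in vehicle, 20.0 to 27.0 CPM in treated litters and a log2 fold change of 0.46 ± 0.16. Nr0b1, a repressor of steroidogenic genes, was at 0.889 to 2.04 CPM in the 6 libraries and had a log2 fold change of -0.15 ± 0.56. Over the 14 tested factors the median was -0.08.

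Nuclear receptors such as NR5A1 bind the half-site AGGTCA, often with A in front (AAGGTCA), and promoters were read for these letters on both strands. Of the 15 genes of the steroidogenic, cholesterol and Leydig lists whose litters did not overlap, 10 matched RefSeq's promoter table, and Fdft1, Lrp8, Scarb1, Sqle and Star did not. The shorter motif was in 16.2% of 33469 promoters of the same length and the longer one in 4.61%. It was found once in each of Fdx1, Inha and Npc2, and in none of Abca1, Crhr1, Hsd3b1, Hsd3b2, Hsd3b3, Idi1 and Soat1. The longer motif was in none of the 10. Fdx1 and Inha are printed with the half-site in capitals, 5′ to 3′ on the strand of the gene in GRCr8, minus at chr8:61183596-61183895 and plus at chr9:84442859-84443158. The site starts 201 and 205 bases before the start of the gene. A match is a description of letters and not of binding.
Fdx1: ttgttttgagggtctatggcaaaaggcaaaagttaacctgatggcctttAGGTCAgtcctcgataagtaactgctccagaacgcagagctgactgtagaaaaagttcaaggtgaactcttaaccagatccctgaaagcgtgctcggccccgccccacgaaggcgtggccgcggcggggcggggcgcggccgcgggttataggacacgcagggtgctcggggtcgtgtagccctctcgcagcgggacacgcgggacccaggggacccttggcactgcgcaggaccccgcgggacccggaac
Inha: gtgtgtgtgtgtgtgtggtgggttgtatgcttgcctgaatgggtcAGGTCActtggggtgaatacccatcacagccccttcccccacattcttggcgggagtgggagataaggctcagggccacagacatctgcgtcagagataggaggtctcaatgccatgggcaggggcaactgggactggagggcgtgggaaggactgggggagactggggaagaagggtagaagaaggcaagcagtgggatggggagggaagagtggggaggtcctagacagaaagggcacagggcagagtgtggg

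Genes of cholesterol supply were next. Scarb1, the receptor that takes cholesterol esters from high-density lipoprotein, lies on chromosome 12 (rn7, chr12:31296156-31362648, plus strand). It was at 201, 192 and 165 CPM in vehicle and at 135, 104 and 72.5 CPM in treated litters. The groups did not overlap, the treated level was 44.2% lower, and the log2 fold change was -0.84 ± 0.22. Without the 2 libraries that stood apart it was -1.01.

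Lrp8, the receptor of reelin and apolipoprotein E, was at 48.1, 38.7 and 33.5 CPM in vehicle and at 28.2, 23.4 and 24.9 CPM in treated litters. Soat1, which esterifies cholesterol for storage, was at 49.95 to 56.8 CPM in vehicle and 32.9 to 46.8 CPM in treated litters. Npc2, which carries cholesterol out of lysosomes, was at 181 to 203 CPM against 160 to 180 CPM. All 3 were without overlap, and their log2 fold changes were -0.65 ± 0.16, -0.42 ± 0.14 and -0.16 ± 0.09. Abca1, which exports cholesterol, was apart in the other direction, at 6.77 to 8.84 CPM in vehicle and 9.14 to 14.4 CPM in treated litters, with a log2 fold change of 0.52 ± 0.21. Of 9 tested genes of uptake and transport, 6 were negative and the median was -0.15. Litters did not overlap for 4 lower genes and 1 higher gene of the 9 (2.99% of all genes in each direction).

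In the mevalonate and sterol pathway 12 of 15 tested genes had a negative fold change (47.7% of all genes), with a median of -0.26, and -0.42 without the 2 libraries that stood apart. Litters did not overlap for 3, all lower (2.99% of all genes). Sqle, squalene epoxidase, was at 222, 241 and 251 CPM in vehicle and at 171, 197 and 186 CPM in treated litters. Idi1, isopentenyl diphosphate isomerase, was at 52.3, 68.4 and 63.6 CPM against 44.9, 51.9 and 43.2 CPM. Fdft1, squalene synthase, was at 199, 215 and 216 CPM against 184, 182 and 180 CPM. The treated litters of these genes were close to each other, and the log2 fold changes were small: -0.37 ± 0.11, -0.40 ± 0.18 and -0.21 ± 0.10.

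Cyp51, the lanosterol demethylase, showed how 1 library can set a value. It was at 109, 111 and 157 CPM in vehicle and at 236, 78.9 and 71.6 CPM in treated litters, where replicate 1 was high and the other 2 were below the vehicle range. The log2 fold change was 0.03 ± 0.36 with all libraries and -0.83 once both libraries that stood apart were left out. Dhcr7, of the last step to cholesterol, was at -0.26 ± 0.14, Lss, lanosterol synthase, at -0.43 ± 0.24 and Acat2, acetoacetyl-CoA thiolase, at -0.41 ± 0.21. Hmgcs1, the HMG-CoA synthase of the cytosol, was at 1.78 to 4.00 CPM in the 6 libraries, with a log2 fold change of -0.42 ± 0.42.

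In 7 tested genes of the SREBP system, which senses sterols, the median was 0.12 with all libraries and -0.05 without the 2 that stood apart, and no litters were separate. Insig1, which holds SREBP in the endoplasmic reticulum, was at -0.40 ± 0.24. Fatty acid synthesis and desaturation had 8 of 11 negative and a median of -0.16. Scd2, a stearoyl-CoA desaturase, was at -0.28 ± 0.13 with overlapping litters. Of 18 tested PPAR targets and genes of fatty acid oxidation, 13 were negative, with a median of -0.12, and 2 were apart and lower (2.99% of all genes). These were Fabp3, a fatty acid carrier, at 505 to 727 CPM in vehicle and 374 to 493 CPM in treated litters, and Acadvl, the very long chain acyl-CoA dehydrogenase. Their log2 fold changes were -0.49 ± 0.14 and -0.69 ± 0.29.

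The 12 lower genes named by rule had a mean count of at least 20, no overlap between groups and the smallest unadjusted p, so their separation is a result of the rule. They were Slc41a3, Cdkn1c, Star, Stc2, Cplx2, Inha, Lrp8, Apod, Pebp1, Cebpb, Scarb1 and Snx33, with unadjusted p of 0.00026 to 0.00196 and an adjusted p of 0.9999 in edgeR. All 12 kept a negative sign without the 2 libraries that stood apart. Slc41a3, of a family of magnesium transporters, was at 26.7, 29.3 and 20.7 CPM in vehicle and at 15.5, 13.8 and 13.2 CPM in treated litters. The treated litters lay within a narrow band, and the log2 fold change was -0.85 ± 0.17. It lies on chromosome 4 (rn7, chr4:123112748-123154767, plus strand).

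Cdkn1c encodes p57, an imprinted inhibitor of cyclin-dependent kinases, and lies on chromosome 1 (rn7, chr1:198655407-198658049, minus strand). Vehicle litters had 17.4, 14.4 and 15.5 CPM and treated litters 9.80, 7.36 and 9.79 CPM. The log2 fold change was -0.81 ± 0.17 and ranged from -0.88 to -0.69 over the alternatives. In the list of imprinted growth genes 9 of 11 were negative with a median of -0.11. Cdkn1c and Zim1 were the 2 of 11 apart and lower (2.99% of all genes). Genes of the cell cycle, 16 in number, had a median of 0.02 and no separate litters.

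Stc2, the secreted glycoprotein stanniocalcin 2, was at 45.6, 38.2 and 42.2 CPM in vehicle and at 27.3, 21.5 and 15.1 CPM in treated litters. The log2 fold change was -0.98 ± 0.23. Pebp1, the Raf kinase inhibitor protein, was at 613, 678 and 714 CPM against 434, 440 and 539 CPM, a log2 fold change of -0.51 ± 0.13. Cplx2, a complexin that acts on vesicle fusion, was at -0.55 ± 0.13 and Snx33, a sorting nexin, at -0.51 ± 0.13. Apod, the lipocalin apolipoprotein D, was a low gene at 3.48 to 5.94 CPM in vehicle and 1.57 to 2.35 CPM in treated litters. Its log2 fold change was -1.22 ± 0.30.

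The 12 higher genes chosen the same way were Fgg, Gnaz, Rasd2, Spaca1, Klk8, Icos, Tmem132e, Lysmd2, Klf5, Wfdc15a, Cpeb1 and Ccdc172. Their log2 fold changes ran from 0.41 to 1.30. All but Cpeb1 were at 1.37 to 40.9 CPM in the 6 libraries. Cpeb1, a regulator of polyadenylation in the cytoplasm, was at 207, 209 and 232 CPM in vehicle and at 263, 275 and 320 CPM in treated litters, a log2 fold change of 0.41 ± 0.12. Spaca1, which encodes a sperm acrosome protein, was at 18.0, 13.1 and 16.2 CPM against 29.9, 23.7 and 22.5 CPM. Klf5, a Krüppel-like transcription factor, was at 1.59, 1.39 and 1.60 CPM against 2.87, 3.43 and 3.88 CPM. These groups did not overlap, as the rule requires. Rasd2, a small GTPase, was at 0.75 ± 0.19 with all libraries and 0.39 without the 2 that stood apart. Its highest library was 100 mg/kg/day replicate 1 at 40.9 CPM.

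**Figure D3:**
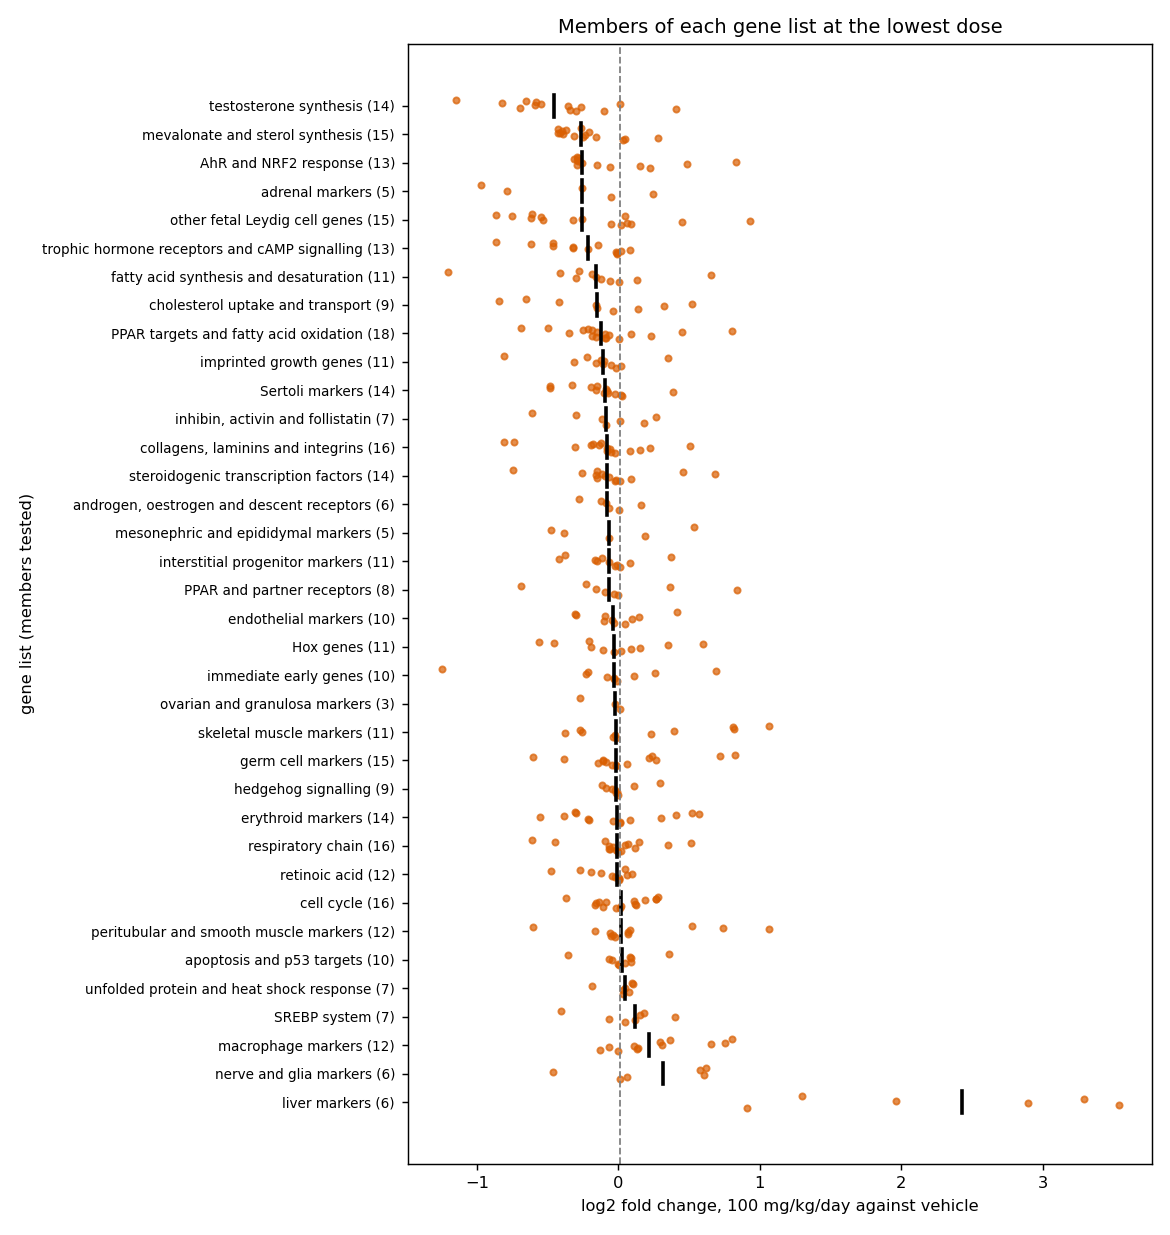
Log2 fold change at 100 mg/kg/day against vehicle for the tested members of each gene list (points), with the list median (black bar) and the median of all tested genes (dashed line). Testosterone synthesis has the lowest median at -0.45, liver markers the highest at 2.43, and the other lists lie between.

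Markers of the other cell types are given by list, beside the all-gene median of 0.01. Sertoli markers had 11 of 14 negative and a median of -0.10, with Clu, a secreted chaperone, at -0.48 ± 0.20, Amh, the anti-Müllerian hormone, at -0.32 ± 0.26 and no separate litters. Germ cell markers had 9 of 15 negative and a median of -0.02. Ddx4, Sall4 and Pou5f1, known for germ cells and pluripotency, were the 3 of 15 apart and higher (2.99% of all genes), at 0.24 ± 0.11, 0.82 ± 0.32 and 0.72 ± 0.31. Interstitial progenitor markers had a median of -0.06, and -0.15 without the 2 libraries that stood apart, with the growth factor receptor gene Pdgfra at -0.38 ± 0.17. Endothelial markers had a median of -0.04, and -0.20 without those 2 libraries. Nerve and glia markers, 6 tested, had a median of 0.32, and 0.04 without them. Macrophage markers had a median of 0.22, with the lysozyme gene Lyz2 at 0.80 ± 0.33. With 1 library left out the macrophage median ranged from -0.09 to 0.40. Summed macrophage markers were at 60.2 to 64.3 CPM in vehicle and at 64.0, 87.2 and 64.7 CPM in treated litters. Summed erythroid markers spanned 16302 to 46177 CPM in vehicle and 15293 to 38779 CPM in treated litters. The upper end of each range was the library that stood apart.

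The mesonephric and epididymal marker Epcam, an epithelial adhesion protein, was at 59.4, 72.4 and 75.8 CPM in vehicle and at 96.0, 107 and 98.0 CPM in treated litters. The groups were apart, with a log2 fold change of 0.54 ± 0.17. Epcam was the 1 of 5 tested genes in its list apart and higher (2.99% of all genes). Of these 5 genes 3 were negative, and the median was -0.07, and -0.16 without the 2 libraries that stood apart. The retinoic acid binding protein Crabp2 was at 720 to 764 CPM in vehicle and 576 to 685 CPM in treated litters, apart and lower by a log2 fold change of -0.27 ± 0.11. Cyp26b1, which degrades retinoic acid, was at 0.05 ± 0.18. Of the AhR and NRF2 list, 9 of 13 were negative with a median of -0.26 and no separate litters, and the mitochondrial superoxide dismutase Sod2 was at -0.29 ± 0.13. Immediate early genes had 7 of 10 negative and a median of -0.03. Atf3, a stress-induced transcription factor, was the 1 of these 10 apart and lower (2.99% of all genes). It was at 0.127 to 0.816 CPM in treated and 0.993 to 2.19 CPM in vehicle litters.

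The liver list differed from the others in the size of its fold changes. Of 6 tested liver markers, 5 were higher with no overlap (2.99% of all genes). All 5 had an unadjusted p under 0.05 in edgeR (1.81% of all genes). The median log2 fold change was 2.43, fitted to very few counts. The summed level was 3.78 to 9.43 CPM in vehicle, 14.4 to 23.3 CPM at 100 mg/kg/day, 4.67 to 8.25 CPM at 300 mg/kg/day, 4.81 to 12.3 CPM at 600 mg/kg/day and 7.13 to 8.55 CPM at 900 mg/kg/day. A second deposited table multiplies Alb by 4, Apoa1 by 9 and Serpina1 by 3 to adjust for attenuation. The levels and counts given here are without that adjustment, so they are low for these genes. Alb, serum albumin, had 1, 1 and 4 counts in vehicle libraries and 6, 28 and 22 counts in treated libraries. Apoa1, the apolipoprotein of high-density lipoprotein, had 10, 10 and 5 against 10, 30 and 49 counts, so its first treated library was apart from vehicle only through scaling. Apoa2 had 2, 1 and 4 against 9, 19 and 21 counts.

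Fgg, the fibrinogen γ chain and also 1 of the 12 higher genes, had 19, 18 and 12 counts in vehicle and 24, 35 and 48 counts in treated libraries. Serpina1, α1-antitrypsin, had 1, 0 and 1 against 1, 11 and 13 counts, and its first treated library was likewise apart only through scaling. Afp, α-fetoprotein, had 62, 8 and 18 against 60, 12 and 75 counts, with overlap. Fgb, the fibrinogen β chain, was at 0 counts in all vehicle libraries and at 1, 2 and 2 counts in treated libraries, and was not tested. For the genes other than Afp, replicates 2 and 3 at 100 mg/kg/day had more counts than replicate 1, and Alb was at 1 to 2 counts at 300 mg/kg/day, 0 to 2 at 600 mg/kg/day and 6 to 7 at 900 mg/kg/day. Whether liver RNA in these litter pools plays a part in any other result was not tested.

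**Figure D4:**
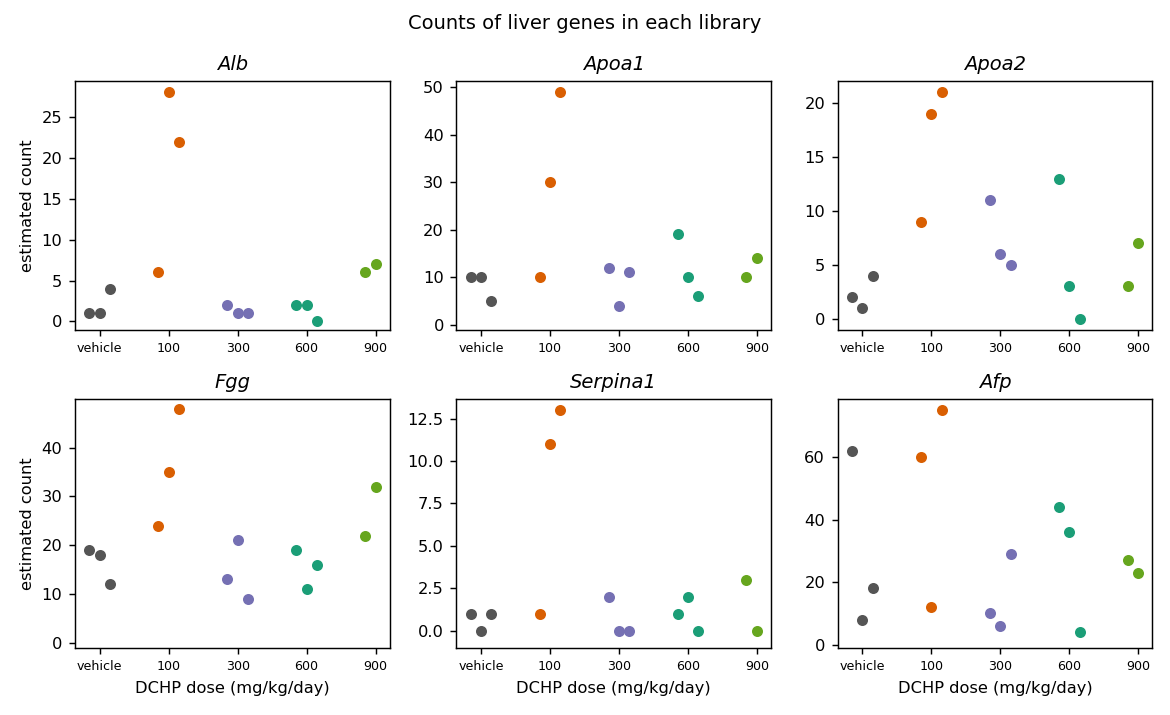
Estimated counts of 6 liver genes in each library by dose, with 1 point for a litter pool. At 100 mg/kg/day replicates 2 and 3 lie above vehicle for Alb, Apoa1, Apoa2, Fgg and Serpina1, at 48 or fewer counts except for Apoa1 at 49.

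The lowest dose was last set against the next one, 300 mg/kg/day, in a contrast without vehicle. No gene passed in edgeR, 173 (1.36%) were lower at 300 mg/kg/day at an unadjusted p under 0.05, and in 427 (3.36%) all 300 mg/kg/day litters lay below all 100 mg/kg/day litters. Among the 12 lower genes named above, 3 were of this kind, namely Star, Scarb1 and Cdkn1c, and among the 12 higher genes none went further up without overlap. Star was at 80.6, 83.2 and 64.8 CPM at 300 mg/kg/day, a log2 fold change of -0.72 ± 0.25 from the lowest dose. Scarb1 was at 67.6, 58.4 and 60.3 CPM, at -0.74 ± 0.22. Both were thus below every litter of the lowest dose.

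Fdx1 was at 1143, 1038 and 976 CPM at 300 mg/kg/day, a log2 fold change of -0.78 ± 0.20 from 100 mg/kg/day. In the sterol pathway Sqle (-0.37 ± 0.11), Idi1 (-0.64 ± 0.18) and Fdft1 (-0.32 ± 0.10) were below the lowest dose in all 300 mg/kg/day litters, as was Acat2 (-0.85 ± 0.22). Hsd3b3, at -0.13 ± 0.17, and Inha, at -0.10 ± 0.15, lay close to the lowest dose. In the same contrast Slc41a3 was at 0.17 ± 0.17 and Stc2 at -0.33 ± 0.23. Apod was higher than at the lowest dose, at 3.60 to 6.77 CPM in the 300 mg/kg/day litters, which overlaps the vehicle range.

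**Figure D5:**
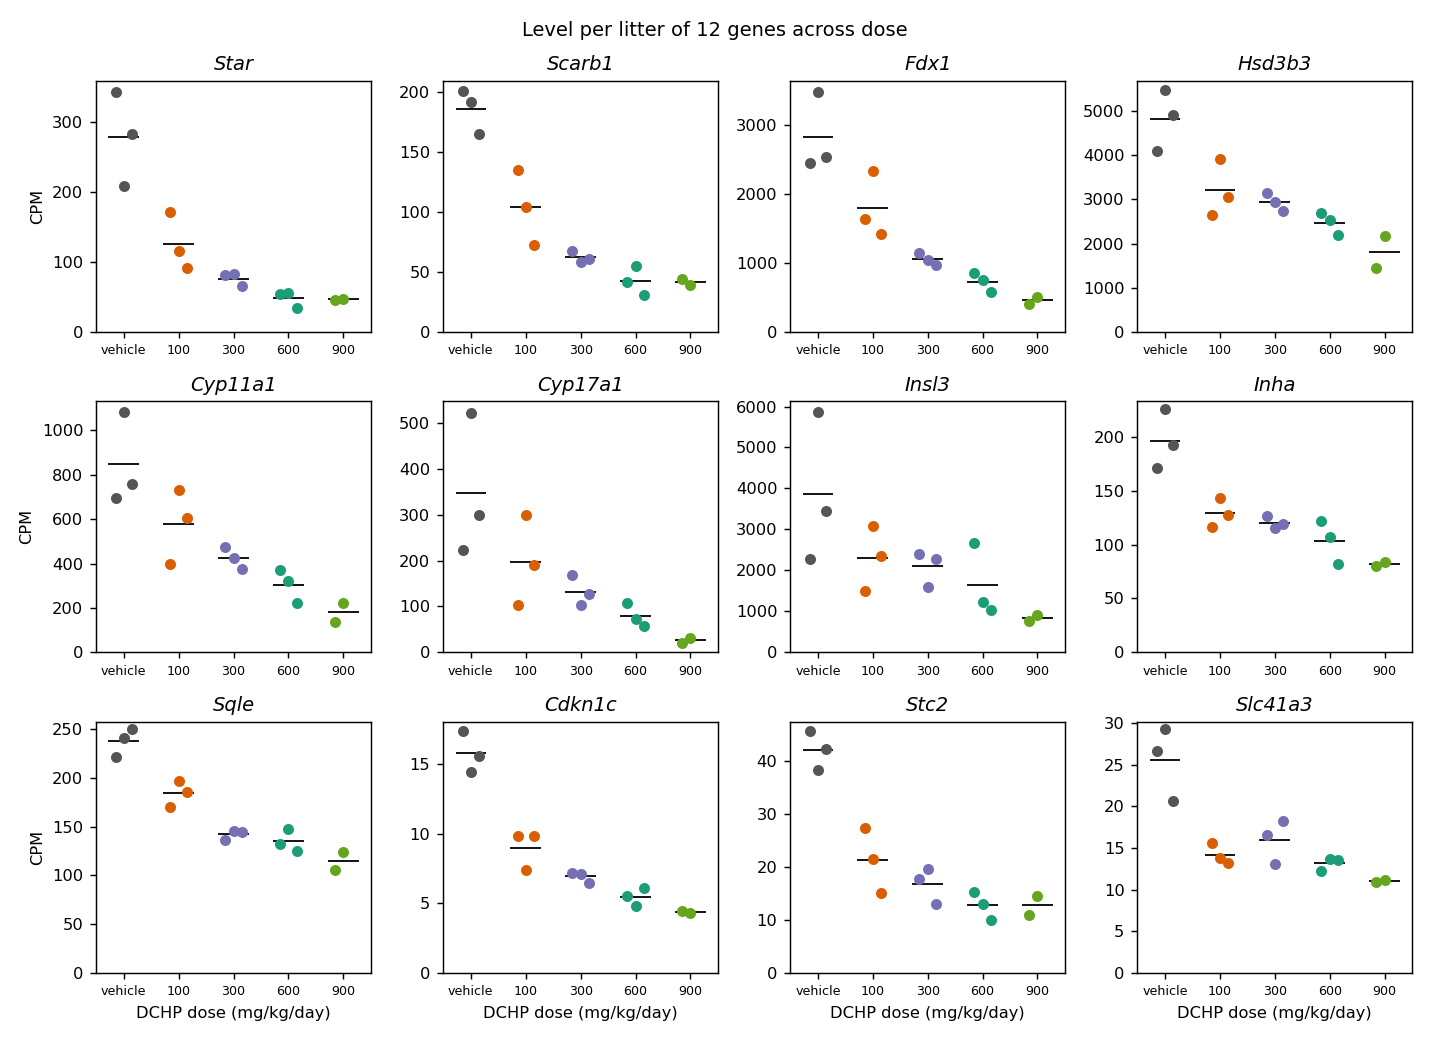
CPM of 12 genes in each litter (points) with the group mean (line), by dose, each on a linear axis from 0. Star, Scarb1, Fdx1, Hsd3b3, Inha, Sqle, Cdkn1c, Stc2 and Slc41a3 have all 3 litters at 100 mg/kg/day below all vehicle litters, while Cyp11a1, Cyp17a1 and Insl3 overlap.

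The size of difference that could be resolved depended on the count. For genes with a mean of 1000 or more counts the median half-width of the 95% interval was a 1.24-fold difference, and from 100 to 1000 counts it was 1.34-fold. From 20 to 100 counts it was 1.61-fold, and under 20 counts 2.37-fold, which covers Hsd3b2, Por, Nr0b1, Atf3 and 4 of the 6 liver genes. These are medians over genes and not limits of detection. With 3 litters against 3 an exact two-sided permutation test of a single gene cannot give a p below 0.1, so none is reported.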

How the data were processed

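Gene expression was measured by TempO-Seq in litter pools of fetal testis, and the comparison used the 3 vehicle and the 3 DCHP 100 mg/kg/day libraries, with the other 8 of 14 in the fit. The submitters' processing notes name STAR 2.7.8a, Partek, DESeq2 and the build rn7, without saying which made which table. The authors deposited estimated counts for 18174 genes, of which 83.6% of values are whole to a tolerance of 1e-09, and they were rounded. A second deposited table adjusts 16 genes for attenuation and served as an alternative. A deposited log2 CPM table was not used.

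Genes were filtered with edgeR's filterByExpr (12719 kept, with 99.9% of counts; 866 without a name), scaled by TMM and fitted with 5 dose means in a robust quasi-likelihood model (edgeR 4.0.16, R 4.3.3; 9 residual degrees of freedom). Tests were two-sided with Benjamini-Hochberg adjustment and called at an adjusted p under 0.05. Scripts were tested on simulated data. Alternatives were DESeq2 1.42.0, limma-voom (limma 3.58.1), sva 3.50.0, other scalings and filters, and leaving libraries out.

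Named genes are the 12 lower and 12 higher with the smallest unadjusted p among named genes averaging 20 or more counts with separate litters, a panel of 16 (1 is not reported here), members of the lists, and genes called by DESeq2. Those called with a surrogate variable were named after their values were seen. Members, lists and alternatives were chosen with earlier results of these data known. Replicates are numbered in label order, and the labels give no batch.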

Additional observations from a re-analysis of the deposited data

How the results depend on the processing

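At 100 mg/kg/day against vehicle no gene was called under any alternative except DESeq2, with 2 genes, and 1 surrogate variable, with 15. The count at an unadjusted p under 0.05 was 433 in the edgeR fit, 159 with only the 6 libraries compared, 716 without both libraries that stood apart and 1151 with 1 surrogate variable, and with 1 library left out it ranged from 372 to 1192. Leaving out 100 mg/kg/day replicate 1 gave 1192 and leaving out vehicle replicate 1 gave 670. For 300 against 100 mg/kg/day, 0 genes were called and 312 had an unadjusted p under 0.05 in edgeR. With 1 surrogate variable these were 1 and 801, and 691 of the latter kind without both libraries. With 1 library left out they ranged from 0 to 1 and from 210 to 696, the 1 call and 693 coming without 100 mg/kg/day replicate 2, and 696 without replicate 3. Of 36 list medians, 13 moved by at least the pooled standard deviation between litters under 1 or more alternatives. Changed values are given in the report for some of the lists and not for all. With 1 library left out, the median of germ cell markers ranged from -0.16 to 0.23. That of other fetal Leydig cell genes ranged from -0.47 to -0.17. Cyp51 reversed to -0.83 without both libraries, to -0.18 with limma-voom and to -0.22 with the surrogate variable. With 1 library left out, 8 named genes changed sign, Cyp51 from -0.74 to 0.32, Srd5a1 from -1.17 to 0.68, Por from -0.88 to 0.015, Nr0b1 from -0.62 to 0.0631, Amh from -0.58 to 0.0202, Tspo from -0.35 to 0.0739, Cyp26b1 from -0.10 to 0.23 and Hsd17b3 from -0.10 to 0.0941. The cause of these changes was not tested. No paired analysis was possible because replicate numbers are absent from the labels. Depth limits the genes under 20 counts most.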
